A study of Homo sapiens with 3 samples.

Results

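The S100 genes examined here encode small calcium-binding proteins, and they were taken as the 10 genes S100A2, S100A4, S100A6, S100A8, S100A9, S100A10, S100A11, S100A14, S100A16 and S100P. Each has a single probe, so the set comprises 10 of the 24460 probes and 10 of the 17559 genes named in the platform annotation. The family was chosen by the measured intensity of S100A2, which was brighter on the villin array than on either other array, so its differences below are a description. The cells were HepG2, a cell line from a human liver carcinoma, harvested 72 h after they received siRNA at 10 nM. There was 1 one-colour array per group, and the groups received a negative control siRNA, siRNA to villin (VIL1, which bundles actin in microvilli) or siRNA to PTK7 (a pseudokinase of the cell surface). The labels name 2 oligonucleotides against villin and do not say which was used, and all 3 groups received an siRNA and the same transfection reagent. With 1 array per group there is no replicate check, no test of a difference was run, and every value describes these 3 arrays.

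S100 proteins are cytosolic, mostly dimeric proteins built from a pair of EF-hands, the helix-loop-helix motif that binds calcium. Calcium binding exposes a surface that docks target proteins such as annexins, myosin and p53, and several members are also secreted and act on receptors such as RAGE. Most S100A genes lie in a cluster in the epidermal differentiation complex of chromosome 1, while S100P lies elsewhere. S100A2 is known as a gene of basal and squamous epithelium, and S100A8 and S100A9 as the subunits of calprotectin of neutrophils and monocytes.

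The targeted genes were read first as a check of the labels. VIL1 had intensities of 924 (control), 129 (villin) and 1084 (labelled PTK7) in the authors' deposited table, on a scale where each array has a median of 25. The single PTK7 probe had 14, 25 and 12 in the same order, and its normalised log2 difference between the array labelled PTK7 and the control array was -0.05. The array is therefore called the array labelled PTK7 throughout. Of 9 hepatocyte markers listed, 8 were measured and detected on all arrays, including albumin (ALB), whose deposited intensity was 14421, 8938 and 12932.

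Of the S100 genes, S100A2, S100A3 and S100A6 had the largest log2 differences of the villin array from the control array (1.77, 1.08 and 0.94). S100A16 and S100A11 followed at 0.88 each. The 250 bases before the RefSeq start sites of S100A2, S100A3 and S100A6 are shown (GRCh38.p14, all on the minus strand, 5′ to 3′). Capitals mark TGANTCA, the core letters of an AP-1 site. For S100A2 the window before the upstream of 2 listed starts is chr1:153565845-153566094, for S100A3 it is chr1:153549259-153549508, and for S100A6 it is chr1:153535992-153536241.
S100A2: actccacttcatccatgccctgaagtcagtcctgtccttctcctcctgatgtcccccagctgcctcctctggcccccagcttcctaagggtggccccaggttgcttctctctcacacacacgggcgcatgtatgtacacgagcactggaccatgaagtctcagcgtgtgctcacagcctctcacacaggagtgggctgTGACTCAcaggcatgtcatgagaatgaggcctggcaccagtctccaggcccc
S100A3: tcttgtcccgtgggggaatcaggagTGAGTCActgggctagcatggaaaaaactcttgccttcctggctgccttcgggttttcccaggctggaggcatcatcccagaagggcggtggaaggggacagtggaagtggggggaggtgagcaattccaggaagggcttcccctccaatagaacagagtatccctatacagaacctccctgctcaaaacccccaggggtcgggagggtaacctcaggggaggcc
S100A6: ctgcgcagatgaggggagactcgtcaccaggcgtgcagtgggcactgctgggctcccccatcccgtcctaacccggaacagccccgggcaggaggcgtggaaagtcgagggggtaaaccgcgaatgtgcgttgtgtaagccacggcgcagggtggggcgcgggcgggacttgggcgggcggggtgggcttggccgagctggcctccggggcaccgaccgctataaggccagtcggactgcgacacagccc

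Searched on both strands, TGANTCA lies at -52 to -46 from the start in S100A2 and at -225 to -219 in S100A3, and not in this window of S100A6 or in that of the second S100A2 start. It was present in 4 of the 26 windows of S100 genes (15.4%), the others being those of S100A5 and S100A12, and in 6.57% of all 35116 promoter windows of the same length. The TATA letters TATAAA were present in 11 of the 26 (42.3%), among them windows of S100A4, S100A8, S100A9 and S100P, and in 10.7% of all windows. By gene they were present in 10 of 19, as overlapping windows of S100A8 hold the same match. None of the 3 printed windows holds TATAAA. The E-box CACGTG was found in 0 of the 26 (6.34% of all windows) and TTGCNNAA, letters of a C/EBP site, in 2 of the 26, those of S100A11 and S100A12 (9.05% of all). A p53 half-site was found in 3 of the 26, in S100A7, S100A7A and S100A16 (5.57% of all), and not in these windows of S100A2. Such matches are letters in a window and do not show that a factor binds.

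S100A2, which binds p53 and is known from keratinocytes, showed the largest difference of the family. Its spot medians were 520.6, 2157 and 818.2 units in the order control, villin and labelled PTK7, while blank spots averaged 60.77, 61.69 and 61.61. The deposited intensities were 364, 1309 and 566, so the villin array was high, the control array low and the array labelled PTK7 between them. After normalisation S100A2 was 3.40-fold higher on the villin array than on the control array, a log2 difference of 1.77, and 2.25-fold higher than on the array labelled PTK7 (1.17). On the array labelled PTK7 it was 1.51-fold higher than on the control array (0.60). It ranked 6 from the top of 15907 genes in the first of these comparisons, 5 of 15947 in the second and 117 of 15775 in the third. In bulk RNA, more cells with the transcript and more transcript per cell cannot be told apart.

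**Figure D1:**
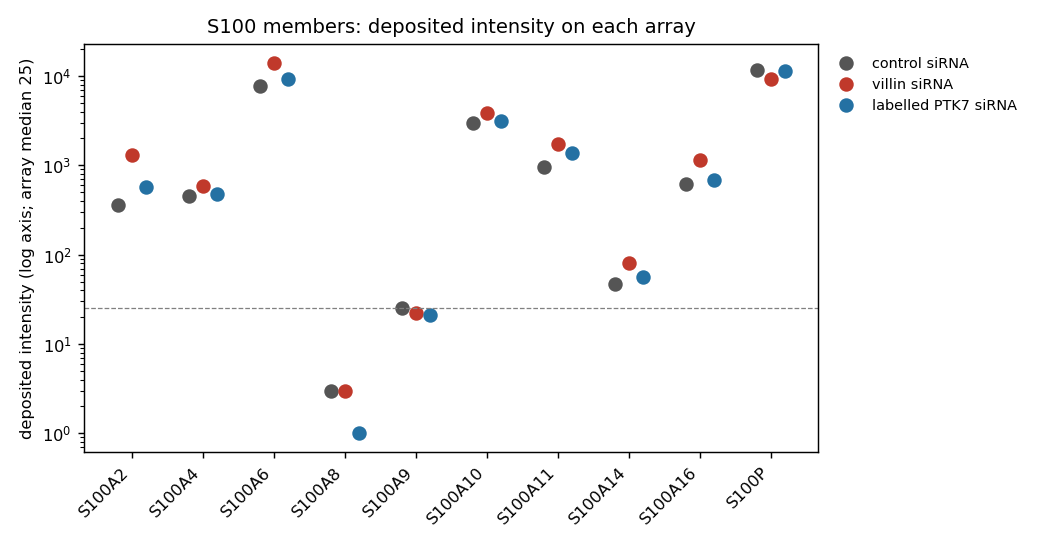
Authors' deposited intensity (log axis, array median 25 dashed) of the 10 S100 members on the control (grey), villin siRNA (red) and labelled PTK7 (blue) arrays; points are single arrays and are to be compared within a gene only. S100A2 stands at 364, 1309 and 566, while S100A8 lies at 3, 3 and 1.

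The members differed widely among themselves. Between the villin and control arrays, 1 of the 10 members was at least 2-fold higher, where 0.289% of all genes were, and 4 were at least 1.5-fold higher, where 1.59% were. No member was at least 1.5-fold lower, as were 0.522% of all genes. The median log2 difference of the 10 was 0.46, against -0.01 for all 15907 genes, with 7 above 0. S100A2, for which the family was picked, is among these counts, and the members were chosen with these results known, so the counts describe the list.

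Next to S100A2 stood 3 members of the cytosolic group. S100A6 (calcyclin), which binds annexins and the ubiquitin ligase adaptor CACYBP, had deposited intensities of 7804, 14165 and 9341 in the same array order. It was 1.92-fold higher on the villin array than on the control array, a log2 difference of 0.94. S100A16, a widely expressed member, had 626, 1157 and 694 and was 1.84-fold higher (0.88). S100A11, which binds annexin A1 and is known from keratinocyte growth control, had 954, 1726 and 1391 and was likewise 1.84-fold higher (0.88). In S100A6 and S100A16 the array labelled PTK7 lay nearer to the control array in these values. After scaling to the surroundings on the slide it lay nearer to the villin array in S100A6 (0.71, with 1.28 on the villin array). With the background column it did so in both, at 4.59 and 4.19 in S100A6 and at 1.46 and 1.66 in S100A16. In S100A11 the array labelled PTK7 lay nearer to the villin array. It was nearer to the control array after that scaling (0.06, with 0.46 on the villin array) and with the background column (0.09 and 0.67). RefSeq lists several pseudogenes of S100A11, and their signal cannot be told apart from that of the gene without the probe sequence.

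Smaller differences were seen for 3 further members. S100A10 (p11), the partner of annexin A2 in plasminogen activation at the cell surface, had deposited intensities of 2960, 3865 and 3100 and a log2 difference of 0.47 between the villin siRNA and control arrays. S100A14, an epithelial member, had 47, 80 and 57 and a difference of 0.44, with 0.77 in the deposited values, where no offset shrinks a dim probe. S100A4 (metastasin), which binds non-muscle myosin and is known from motile and mesenchymal cells, had 457, 581 and 475 and a difference of 0.33. All 3 were brightest on the villin array in the deposited values. For S100A14 the array labelled PTK7 exceeded the control array by 0.28 in these values, and with the background column it was the brightest, at 0.42 against 0.06 for the villin array.

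The calprotectin subunits and S100P did not share this order. S100A8 was close to the blank spots, 4.12, 5.47 and 2.35 blank SDs above their mean on the 3 arrays, with deposited intensities of 3, 3 and 1. At 1 to 3 units the values are rounding steps, and its normalised log2 difference of the villin array from the control array was 0.00. S100A9 had 25, 22 and 21 and a difference of -0.11. S100P, a member outside the chromosome 1 cluster that binds ezrin and is known from gastrointestinal carcinomas, had 11807, 9357 and 11468. After normalisation it was lowest on the villin array, 1.14-fold below the control array and 1.19-fold below the array labelled PTK7. Its spot medians before any scaling were close, at 14977, 15043 and 15399. With the background column the log2 difference from the control array was 0.10 on the villin array and 1.07 on the array labelled PTK7.

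**Figure D2:**
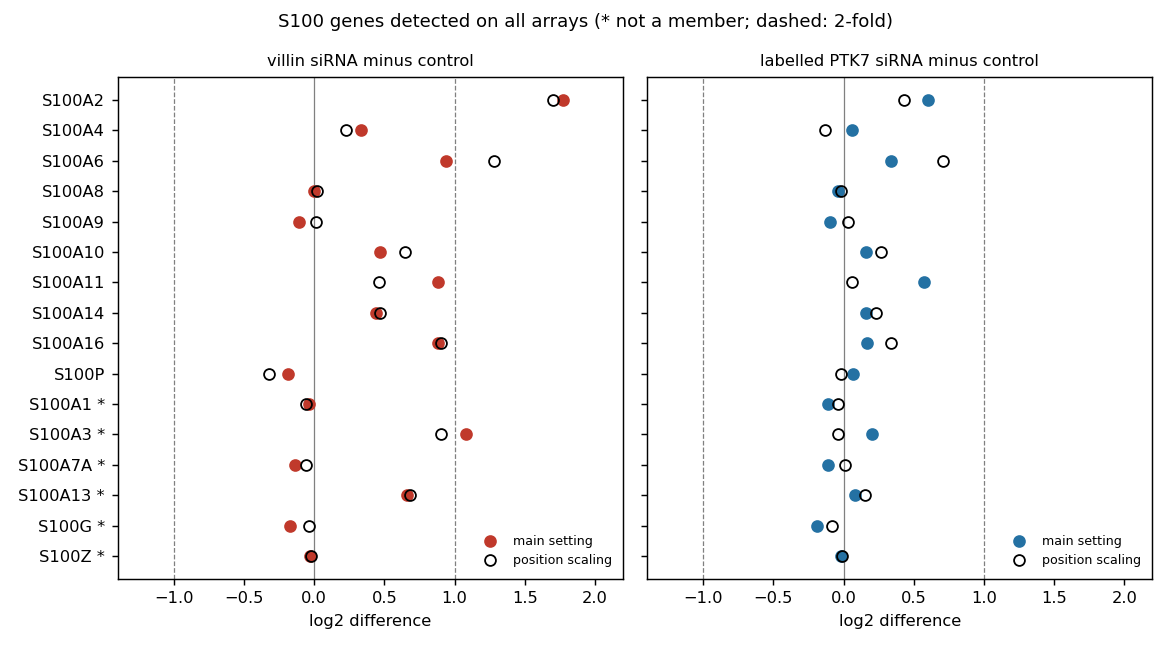
Log2 differences of the S100 genes detected on all 3 arrays for the villin array (left) and the array labelled PTK7 (right) against the control array, 1 array each; filled points are the main setting, open points follow scaling to the surroundings on the slide, dashed lines mark 2-fold and asterisks mark genes outside the 10 members. S100A2 lies beyond 2-fold under both settings on the left, and S100A6 only after scaling.

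On the array labelled PTK7 the same members differed less from the control array. None of the 10 was at least 2-fold higher, where 0.108% of all genes were, and S100A2 alone was at least 1.5-fold higher, where 0.811% of all genes were. None was at least 1.5-fold lower (0.216% of all genes). Scaled to the surroundings on the slide, S100A2 stood at 0.43, under 1.5-fold, and S100A6 at 0.71, above it, so the member past 1.5-fold was another one. In the unscaled values, after S100A2 came S100A11 with a log2 difference of 0.57 and S100A6 with 0.34, and the other 7 members lay between -0.10 and 0.17. The median of the 10 was 0.16, against -0.01 for all genes. The comparisons with the control array share that array, so a high or low value on it moves both.

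The villin array and the array labelled PTK7 can be compared without it. S100A2 was the only member at least 2-fold higher on the villin array, where 0.0502% of all genes were, and S100A2, S100A16 and S100A6 were at least 1.5-fold higher, where 0.489% were. S100A16 was 1.64-fold higher, a log2 difference of 0.71, and S100A6 1.51-fold, a difference of 0.59. Scaled to their surroundings on the slide, these became 0.56 and 0.57, both under 1.5-fold, while S100A2 stood at 1.27. With the scanner's background column S100A16 stood at 0.20 and S100A6 at -0.41. None of the members was at least 1.5-fold lower, as were 0.169% of all genes, and S100P was the lowest at -0.26. The median was 0.29 for the 10 members and 0.00 for all genes.

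**Figure D3:**
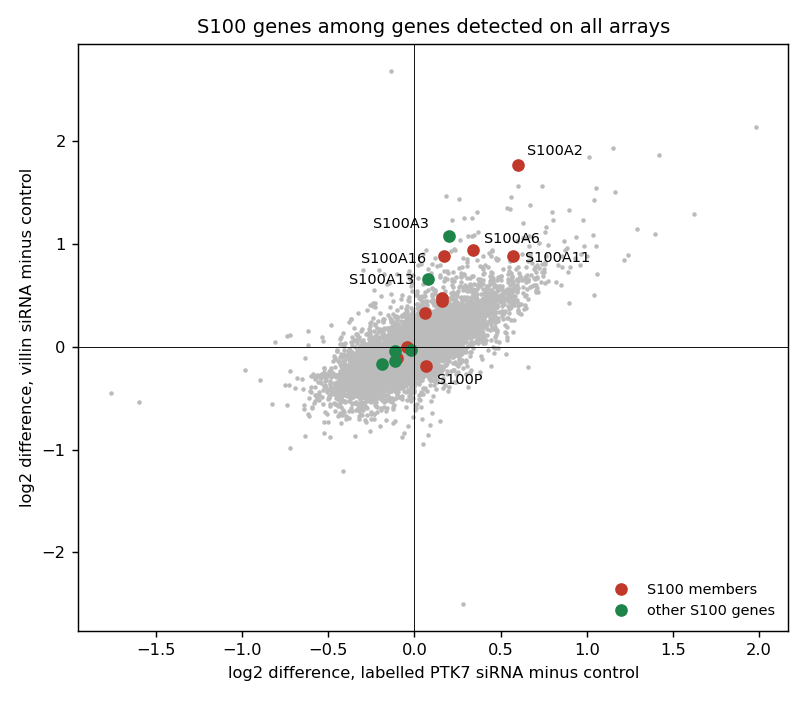
Log2 difference of the villin array (vertical) and of the array labelled PTK7 (horizontal) against the shared control array for all genes detected on the 3 arrays (grey), with S100 members in red and other S100 genes in green. S100A2 lies at 1.77 and 0.60, and S100A3 and S100A16 lie high on the vertical axis with 0.20 and 0.17 on the horizontal one.

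The probes around a spot also differed between arrays, so each member was set against its surroundings on the slide. The median log2 deviation of the probes around the S100A2 spot was 0.44 for the villin array against the control array before normalisation, and after scaling each array to its surroundings (position scaling) S100A2 stood at 1.70. S100A6 went from 0.94 to 1.28 and S100A16 from 0.88 to 0.90. S100A11, whose surroundings deviated by 0.83, went from 0.88 to 0.46. It was then under 1.5-fold. On the array labelled PTK7, S100A11 went from 0.57 to 0.06. With position scaling 2 of the 10 members, S100A2 and S100A6, were at least 2-fold higher on the villin array than on the control array.

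The spots of the family also share a printing position. S100A2, S100A4, S100A6, S100A8, S100A9 and S100P all lie in columns 63 to 64 and row 2 of different blocks, as do S100A1, S100A3, S100A12 and S100B. The other 38 probes at these columns and this row of the 24 blocks had a median log2 difference of 0.02 between the villin siRNA and control arrays. The 35 of them that were detected on both arrays ranged from -0.30 to 0.34, and none was at least 1.5-fold higher. Of the 8 S100 genes there that were detected on both arrays, 3 (S100A2, S100A3 and S100A6) were at least 1.5-fold higher, where 1.59% of all genes were. S100A2, for which the family was picked, is among the 3. The brightness of the other probes was not matched to that of the S100 genes, and the offset shrinks differences of dim probes. A part of the printing position in the S100 values was not tested.

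The remaining S100 genes were examined beside the members. S100A3, the gene next to S100A2 and known from the hair cuticle, had deposited intensities of 458, 1001 and 530 and exceeded the control array 2.11-fold on the villin array, at a log2 difference of 1.08 that became 0.90 after position scaling. Against the array labelled PTK7 it was 1.84-fold higher. S100A13, which takes part in the export of fibroblast growth factor 1, had 603, 956 and 629 and was 1.58-fold higher on the villin array than on the control array (0.66). In both genes the array labelled PTK7 lay close to the control array, with log2 differences of 0.20 and 0.08. With the scanner's background column S100A13 stood at 1.5 on the array labelled PTK7 and at 0.30 on the villin array.

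The others were lower or close to the control array. S100A1, known from muscle, had deposited intensities of 50, 50 and 44. S100A7A, S100G and S100Z had log2 differences between -0.17 and -0.03 for the villin array against the control array. In the deposited values S100A7A (11, 7 and 7) stood at -0.65, over 1.5-fold lower, and S100G (27, 21 and 19) at -0.36. S100A12, S100B and the pseudogene S100A7L2 were not above background on any array, and S100A5 and S100A7 were not analysed here. Of the 6 other S100 genes detected on both arrays, 2 were therefore at least 1.5-fold higher on the villin array, where 1.59% of all genes were. The median of the 6 was -0.03.

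Arranged in RefSeq order, the high values lay side by side. From S100A6 to S100A1 the measured genes are S100A6, S100A4, S100A3, S100A2, S100A16, S100A14, S100A13 and S100A1, a stretch chosen after the values were seen. On the villin array 7 of these 8 were above the control array, and 5 were at least 1.5-fold higher. Of all 15907 genes 7191 were above it, and 1.59% were at least 1.5-fold higher. The median log2 difference of the 8 was 0.77 (0.79 after position scaling). Without S100A2 the median of the other 7 was 0.66, with values from -0.04 to 1.08. S100A1, at the end of the stretch, was the gene at -0.04, and its neighbours CHTOP and SNAPIN lay at -0.05 and 0.14. On the array labelled PTK7 the 8 genes had a median of 0.16.

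The genes around that stretch were read beside it. Between S100A10 and ILF2, 35 protein-coding genes outside the S100 family were detected on both arrays, among them the cornified envelope genes of the LCE and SPRR families. Their normalised log2 differences between the villin siRNA and control arrays ran from -0.25 to 0.29, with a median of -0.05. None was at least 1.5-fold apart in these values. Several were dim, such as RPTN (deposited intensities 3, 2 and 2) and SPRR1B (5, 3 and 3), and the offset of the normalisation shrinks such differences. Brighter ones included LCE1C (299, 302 and 248) and SPRR1A (357, 297 and 274). S100A9, S100A8 and S100A7A, which lie between the SPRR genes and S100A6, had differences of -0.11, 0.00 and -0.14. S100A10 and S100A11, at the far end, stood at 0.47 and 0.88. These genes and the stretch from S100A6 were thus separated by detected genes between -0.25 (SPRR1A) and 0.25 (CRNN, 0.05 after position scaling).

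**Figure D4:**
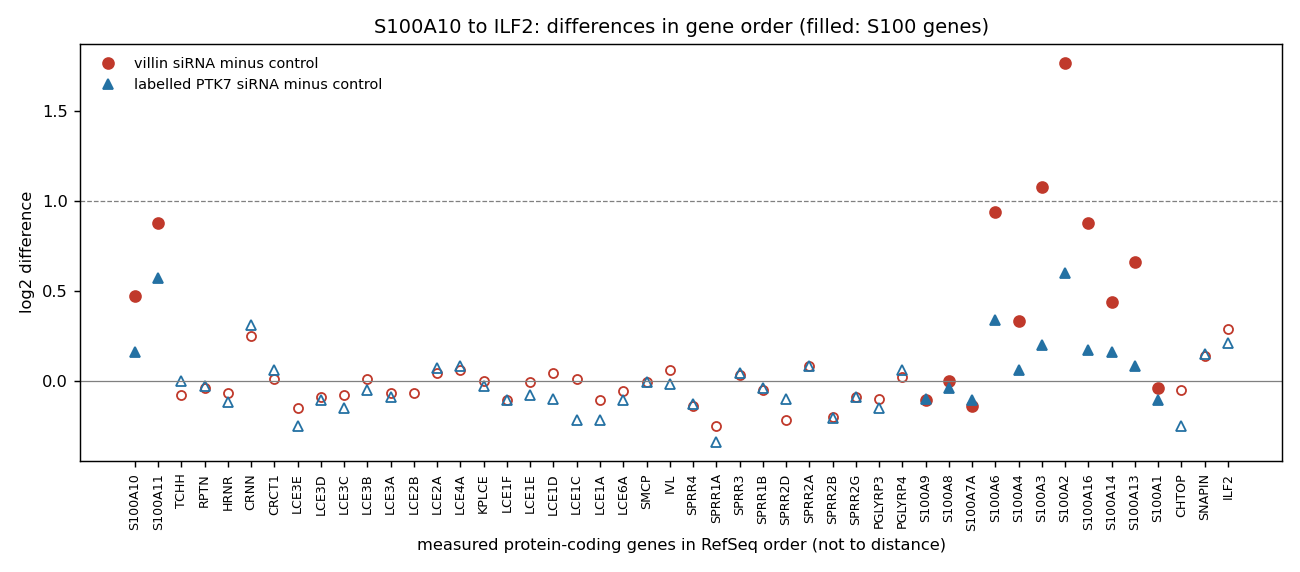
Log2 differences of the villin array (red circles) and of the array labelled PTK7 (blue triangles) against the control array for measured protein-coding genes from S100A10 to ILF2 in RefSeq order; filled symbols are S100 genes, spacing is not to distance, and the dashed line marks 2-fold higher. The S100 genes from S100A6 to S100A13 lie at 0.33 or above on the villin array, while the non-S100 genes lie between -0.25 and 0.29.

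The pattern of S100A2 over the 3 arrays was most like that of 6 genes, found by Euclidean distance over the log2 differences of both siRNA arrays from the control array among 7846 genes above the median level. These were KRTAP3-1, RAB3B, SOX4, CAPN2, KRT19 and the probe annotated CD24L4, at distances from 0.210 to 0.428. KRTAP3-1, a hair keratin-associated protein, had deposited intensities of 269, 847 and 428. SOX4, a transcription factor of progenitor cells, had 100, 343 and 167, and KRT19, a keratin of bile duct cells, had 1573, 5536 and 3101. The annotation CD24L4 is now the pseudogene CD24P4, so its signal cannot be told apart from that of related CD24 copies. Likeness over 3 arrays says only that these genes share the order of S100A2.

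Among the proteins that S100 proteins bind, few transcripts were far apart. Of 12 measured annexins, ANXA3 was at least 1.5-fold higher on the villin array than on the control array, by 2.08-fold (deposited intensities 394, 845 and 624), with 0.63 on the log2 scale on the array labelled PTK7. With the scanner's background column its difference on the villin array was -0.09. ANXA2, the partner of S100A10, had a log2 difference of 0.15, while ANXA5 stood at 0.54 and ANXA4 at -0.46. None of 13 measured intracellular partners was at least 1.5-fold apart in either direction after normalisation. Their largest value against the control array was that of nucleolin (NCL) on the villin array at 0.39 and that of the channel KCNK3 on the array labelled PTK7 at 0.47. The lowest values were -0.12 for the scaffold IQGAP1 and -0.28 for ezrin (EZR), respectively. KCNK3 (deposited intensities 2, 4 and 17) and HLTF (13, 28 and 27) were dim, where the offset shrinks differences. In the deposited values both were at least 2-fold higher on the array labelled PTK7 than on the control array. With the background column KCNK3 stood at 0.11 there.

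Of 6 measured receptors for S100 proteins, the adhesion molecule MCAM was 1.80-fold higher on the villin array than on the control array, at a log2 difference of 0.85 that became 0.49 after position scaling. It stood at 0.67 on the array labelled PTK7, and 0.23 after scaling. The gene of RAGE (AGER) was near the blank spots, with deposited intensities of 1, 2 and 2. Basigin (BSG), a receptor of S100A9, stood at -0.14 and -0.16 on the 2 arrays. The other receptors lay between -0.27 and 0.34 on the villin array.

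Transcription factors known to act on S100 genes differed in both directions. Of 18 measured and detected on both arrays, SPI1, a myeloid factor, was at least 1.5-fold higher on the villin array than on the control array, at 0.74, from deposited intensities of 5 and 34, with 3 on the array labelled PTK7. CEBPA, a hepatocyte and myeloid factor, was 1.51-fold lower (-0.59), with intensities of 858, 541 and 806. After position scaling CEBPA stood at -0.52, under 1.5-fold, and with the background column its difference turned to 0.74, while SPI1 stood at 0.71 and 0.20. The AP-1 subunit gene JUN stood at 0.33, FOS at -0.19, JUNB at -0.22 and FOSL1 at -0.27, so these genes did not share a direction in these values. With the background column JUN turned to -1.27, and after position scaling FOSL1 stood at -0.01. FOS was dim (deposited intensities 18, 12 and 10), where the offset shrinks differences. On the array labelled PTK7 none of 17 factors was at least 1.5-fold apart, and FOSL1 was the lowest at -0.55 (-0.08 after position scaling). TP63, known as an activator of S100A2 in keratinocytes, had intensities of 5 and 1 on the control and villin arrays and was not above background on the third.

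Other EF-hand proteins and the neighbouring epidermal genes served as comparison lists. Of 19 other EF-hand genes detected on both arrays, the calpain subunit CAPN2 was 2.59-fold higher on the villin array than on the control array and PDCD6 1.75-fold, while the array labelled PTK7 gave log2 differences of 0.67 and 0.76. With position scaling CAPN2 stood at 1.16 and 0.42 and PDCD6 at 0.41 and 0.29 on the 2 arrays, so CAPN2 on the villin array alone stayed past 1.5-fold. With the background column CAPN2 on the array labelled PTK7 turned to -0.61. The list had a median of 0.07, and its calmodulin genes CALM2 and CALM3 lay at 0.12 and -0.09. None of 11 epidermal differentiation complex genes was at least 1.5-fold apart in either comparison with the control array, with values from -0.34 for SPRR1A on the array labelled PTK7 to 0.08 for SPRR2A. None of 4 S100 fused-type genes detected was either, from -0.12 for HRNR on the array labelled PTK7 to 0.31 for CRNN there. Some probes of both lists were dim, where the offset of the normalisation shrinks differences. The deposited intensities of PGLYRP3 (10, 7 and 5), SPRR1B (5, 3 and 3) and HRNR (6, 4 and 2) were over 1.5-fold lower on the array labelled PTK7 than on the control array. That of SPRR3 (2, 3 and 3) was higher.

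Markers of cell types known for S100 genes were measured beside them, and their part in the S100 values was not tested. Of 10 squamous markers, all detected on all arrays, the list sum of deposited intensities was 2129, 2750 and 1881 on the control, villin siRNA and labelled PTK7 arrays. Most of it came from stratifin (SFN), at 1672, 2282 and 1424, and the lowest markers were at 2 to 3. Of 11 myeloid markers, 10 were detected on all arrays, with sums of 401, 627 and 543, of which lysozyme (LYZ) gave 226, 455 and 383. LYZ was 1.86-fold higher on the villin array than on the control array, whereas the pan-leukocyte gene PTPRC had a value of 2 on the control array and none on the others. Of 6 biliary markers the sum was 6918, 10753 and 9091, with KRT19 3.58-fold higher on the villin array. Its log2 difference there was 1.84, and 1.36 after position scaling. On the array labelled PTK7 KRT19 was 2.02-fold higher than on the control array, at 1.01 that became 0.46 after scaling. The others did not share a direction: SPP1 stood at -0.33 (2768, 2057 and 2839) and CFTR at -0.06 on the villin array, and SOX9 at -0.33 on the array labelled PTK7. EPCAM stood at 0.71 on the latter, and at 0.29 after position scaling. Hepatocyte markers summed to 50996, 36557 and 47628, with ALB at -0.56 and TTR at 0.24 on the villin array, and 0.02 and 0.43 on the array labelled PTK7. Of 8 reference genes the median difference on the villin array was 0.08, with values from -0.04 for GAPDH to 0.31 for SDHA.

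S100A2 was at least 2-fold higher on the villin array than on either other array under every setting tried, while its difference on the array labelled PTK7 passed 1.5-fold under some only. That difference was 0.43 with position scaling and 0.45 with the background column, both under 1.5-fold. Over 12 settings the log2 difference of S100A2 ran from 1.70 to 1.92 for the villin array against the control array, from 1.16 to 1.36 against the array labelled PTK7, and from 0.43 to 0.64 for the latter against the control array. The 12 are not independent. With a single probe, the mean of probes returns the main value, and another detection filter changes which genes are kept but not their values. The deposited values and plain subtraction both rest on the spot median less the blank mean. S100A16 and S100A11 were above the control array on the villin array under all 12, from 0.88 to 1.66 and from 0.46 to 1.01. S100A6 was too, from 0.86 to 4.19, where the highest value came with the scanner's background column. For S100A6 that column read 10419 on the control array against a spot median of 9921. For S100A10 it read 3513, 6501 and 1013 on the 3 arrays, and the difference of the villin array from the control array turned to -2.65.

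**Figure D5:**
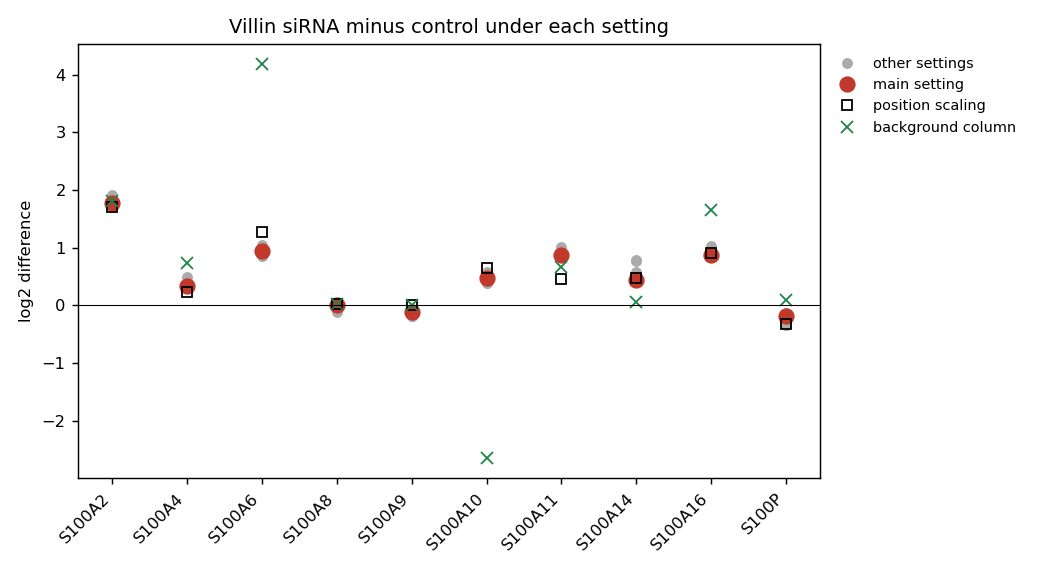
Log2 difference of each S100 member between the villin siRNA and control arrays, 1 array each, under every setting: main (red), position scaling (open squares), the scanner's background column (green crosses) and the others (grey). The settings lie between 1.70 and 1.92 for S100A2, while the background column sets S100A6 at 4.19 and S100A10 at -2.65.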

How the data were processed

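Amplified RNA carried Cy5 and each array held 1 sample, per the labels' protocols. Per the file headers, the deposited scanner intensities are spot medians in the red channel, not normalised, with a background column. The authors also deposited a table of whole-number intensities. Set against the scanner values, it equals each spot median less the mean of blank spots, over a factor of 1.263, 1.601 and 1.337 on the 3 arrays, within 1 unit for all detected probes. Aligners and builds do not apply, and probe sequences were not used here.

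Background was a trimmed mean of 2680 blanks, with 5% dropped from either end. A probe was detected 2 blank SDs above it and not marked as bad by the scanner (22090, 22525 and 22064 of 24460 probes). Values were corrected by normexp (offset 50), which shrinks differences of dim probes, then quantile normalisation (limma 3.58.1, R 4.3.3). The brightest probe stood for a gene. Of 20236 probes with a symbol, 17238 symbols were current in RefSeq GRCh38.p14, 2899 were updated and 99 were unmatched. RefSeq served for names and gene order, and promoter windows are RefSeq's. The files name no build.

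Position scaling removed from each signal the median deviation of neighbouring probes from the mean of the 3 arrays (11 columns by 5 rows within a block). Normexp and quantile normalisation were tested on simulated arrays that had no differences by slide position. Position scaling was not part of that test. The members, lists and alternatives were chosen with earlier results of these data known. Named were all S100 genes, up to 4 genes per list beyond 1.5-fold or its extremes, the 6 genes most like S100A2, and the neighbours from S100A10 to ILF2. Genes outside that rule (ANXA2, ANXA4, ANXA5, AGER, BSG, JUN, JUNB, FOS, TP63, CALM2, CALM3, CFTR, PTPRC, CHTOP and SNAPIN) were named after their values were seen. Tables were handled in Python 3.11.15 with pandas 2.3.3.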

Additional observations from a re-analysis of the deposited data

How the results depend on the processing

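A value was taken as moved when it changed by more than 0.235, the log2 spread of a difference between positive control spots. None of the S100A2 differences moved under the alternatives tried. The number of members at least 2-fold apart between the villin siRNA and control arrays was 1 and became 4 with median scaling, 2 with cyclic loess, 4 with the background column, 2 with position scaling and 4 at a 1.5-fold threshold. For the array labelled PTK7 against the control array it was 0 and became 1 with the deposited values, 4 with the background column and 1 at a 1.5-fold threshold. The 1 with the deposited values was S100A8, lower by a rounding step (3 against 1). Over all genes 367 were at least 2-fold higher and 434 lower with those values, and 374 and 327 with the background column. Between the villin array and the array labelled PTK7 the number of members was 1. It became 2 with the deposited values, 2 with plain subtraction, 2 with the background column and 3 at a 1.5-fold threshold. S100A8 was added with the deposited values and plain subtraction, and S100A10, lower at -5.68, with the background column. Over all genes 402 were higher and 182 lower with the deposited values, 186 and 45 with plain subtraction and 210 and 359 with the background column. The median of the members moved only with the background column, to 0.43 for the array labelled PTK7 against the control array and to 0.00 for the villin array against the array labelled PTK7. S100A6 turned to -0.41 in the latter comparison with the background column. The cause was not tested. Of the 492 values of other S100 genes under an alternative, 451 moved by less than that spread, 40 by more, and 1, that of S100A6 above, turned its sign from at least 1.5-fold higher. S100A2 and each of these genes have a single probe, so values with another detection filter or the mean of probes could not move. Those of the other S100 genes are counted in the 451, which therefore overstates the stability. Values under 1.5-fold that changed sign, among them S100A10 and S100A13 with the background column, are counted by size alone. Over all genes, 46 were at least 2-fold higher and 2 lower on the villin array than on the control array, against 591 and 289 with the deposited values, 423 and 108 with plain subtraction, 216 and 315 with the background column, 83 and 7 with a normexp offset of 16, 79 and 2 with median scaling, 47 and 14 with the mean of probes and 30 and 2 with position scaling. No paired analysis was possible because each group has 1 array. Signal over background limits S100A8, which lies within 5.47 blank SDs of the blank mean.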
